A study of Mus musculus with 13 samples.

Results

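The comparison described here sets CD103 low dendritic cells of mice given muramyl dipeptide (MDP) against CD103 high dendritic cells of mice given PBS. It uses 3 arrays of each group, 6 of the 13 arrays of the series, and covers 22180 genes. The pair was chosen because both groups had nearly the same mean RNA of Itgae, the gene of CD103, although one was sorted as low and the other as high for the protein. The 4 markers listed for the pair are Itgae, Emb, Fcrla and Cd300c, and these were named with earlier results on the PBS CD103 high arrays known. Their values are therefore a description and carry no test.

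The cells were CD205+CD8+ dendritic cells of the spleen, sorted from C57Bl/6 littermates labelled male. Every mouse, control or treated, carried 5000000 subcutaneous B16 melanoma cells secreting FLT3L, placed at 6 weeks of age. After 5 days the mice were injected intraperitoneally with 100 ul of PBS, which held 50 ug of MDP in the treated group, and spleens were taken 24 h later. Spleens were digested with Collagenase D at 2 mg/ml, and a second gate split the sorted cells by CD103 into low and high. The other groups of the series are PBS CD103 low (4 arrays) and MDP CD103 high (3 arrays). Affymetrix Mouse Gene 2.0 ST arrays were hybridised with 400 ng of pre-amplified RNA, and the values below are log2 RMA values (a background-corrected, quantile-normalised and summarised probe signal). A difference of 1 on this scale is a doubling.

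The pair differs in the injection and in the gate at once, so the part of each cannot be told apart. CD103 was gated after the injection, and whether the gates hold the same kinds of cells in treated and control mice was not tested. In RNA from a sorted population, fewer cells of a type and less RNA per cell cannot be told apart either. Separate mice per array are not stated, and p-values thus cover only the spread between these samples, which may be technical. The labels also number the arrays, and all MDP CD103 low arrays carry the numbers 1 to 3 while all PBS CD103 high arrays carry 4 to 6. What the numbers stand for is not stated. Xist, the RNA of the silenced X chromosome, went against the male label in 7 of the 13 arrays (10.98 to 11.21, against 4.47 to 6.69 in the other 6). These 7 include MDP CD103 low replicate 3 and PBS CD103 high replicates 4 and 5.

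CD8+CD205+ dendritic cells of the mouse spleen belong to the type 1 conventional lineage (cDC1), which takes up dying cells and shows their antigens to CD8 T cells. CD103 is the alpha E integrin chain, which pairs with beta 7 and binds E-cadherin. Its gene is known to respond to TGF-beta and, in dendritic cells, to GM-CSF. MDP is the part of bacterial peptidoglycan that the cytosolic receptor NOD2 senses, and NOD2 signals through RIPK2 to NF-kB.

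Promoters are shown for the markers that differed in level, since these are the genes by which the groups of equal Itgae RNA are told apart. RefSeq's table held an entry for 3 of the 4 markers. Each sequence runs 5′ to 3′ on the gene's own strand, from 250 bases before the transcription start to 50 after it (GRCm38.p6): chr13:117220323-117220622 on the + strand for Emb, chr1:170927534-170927833 on the - strand for Fcrla and chr11:114960458-114960757 on the - strand for Cd300c. Capitals mark matches to the motifs searched on both strands, which were TGTGGT for RUNX factors, TTCNNNGAA for STAT factors and GAGGAA for PU.1. No matches of different motifs overlapped.
Emb: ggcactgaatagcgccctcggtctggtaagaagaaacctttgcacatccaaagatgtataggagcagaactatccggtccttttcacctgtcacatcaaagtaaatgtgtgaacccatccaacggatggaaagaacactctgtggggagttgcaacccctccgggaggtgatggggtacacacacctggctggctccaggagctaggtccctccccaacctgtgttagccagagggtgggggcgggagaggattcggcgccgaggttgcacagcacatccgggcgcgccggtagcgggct
Fcrla: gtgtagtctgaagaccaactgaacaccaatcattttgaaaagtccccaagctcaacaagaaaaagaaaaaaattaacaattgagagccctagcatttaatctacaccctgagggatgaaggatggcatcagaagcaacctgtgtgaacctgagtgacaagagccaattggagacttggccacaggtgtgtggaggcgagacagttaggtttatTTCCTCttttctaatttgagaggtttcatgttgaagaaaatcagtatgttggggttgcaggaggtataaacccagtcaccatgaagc
Cd300c: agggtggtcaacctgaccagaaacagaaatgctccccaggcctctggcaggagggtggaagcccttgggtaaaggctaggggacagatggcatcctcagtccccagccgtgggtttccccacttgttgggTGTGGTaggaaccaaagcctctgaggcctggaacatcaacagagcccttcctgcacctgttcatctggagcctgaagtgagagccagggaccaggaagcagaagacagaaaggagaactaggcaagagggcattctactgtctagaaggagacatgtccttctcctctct
The Fcrla window held 1 PU.1 match, on the opposite strand and beginning 37 bases before the start, and the Cd300c window held 1 RUNX match beginning 120 bases before it. None of the 3 motifs was found in the Emb window. Of 32851 promoters of 300 bases, 28.3% held the PU.1 letters, 16.8% the RUNX letters and 8.3% the STAT letters.

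Itgae (probe set 17252574, Entrez gene 16407) read 10.68, 10.07 and 9.64 in MDP CD103 low replicates 1, 2 and 3. It read 10.16, 10.22 and 10.07 in PBS CD103 high replicates 4, 5 and 6. The groups overlapped, and the MDP arrays spread over a wider range on both sides of the PBS arrays. The difference, MDP CD103 low minus PBS CD103 high as everywhere below, was -0.02 ± 0.25 (SE). It was -0.30 without MDP CD103 low replicate 1. PBS CD103 low cells lay below both groups, with a mean of 7.92, and MDP CD103 high cells above both, with a mean of 11.35.

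Emb (probe set 17290083, Entrez gene 13723) encodes embigin, a membrane glycoprotein that escorts lactate transporters to the cell surface. It read 7.63, 7.24 and 7.29 in the MDP CD103 low arrays and 4.90, 5.36 and 5.58 in the PBS CD103 high arrays. The groups were far apart, with a difference of 2.11 ± 0.16, or 4.3-fold. The MDP CD103 low arrays were the highest of all 13 and the PBS CD103 high arrays the lowest, and the other groups had means of 6.79 and 6.88. With the mean of both Emb probe sets in place of the brighter, the difference was 1.03. The rise was thus seen by the brighter probe set and not by the other.

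Fcrla (probe set 17229596, Entrez gene 98752), an intracellular immunoglobulin-binding protein best known from B cells, read 8.11, 7.90 and 8.15 in the MDP CD103 low arrays. In the PBS CD103 high arrays it read 9.0, 9.07 and 9.16, for a difference of -1.02 ± 0.10. Cd300c (probe set 17271719, Entrez gene 387565), an activating receptor of the CD300 family of myeloid cells, read 8.59, 8.18 and 8.34 against 9.22, 9.44 and 9.72. Its difference was -1.09 ± 0.14. For both genes the PBS CD103 high arrays lay above all 10 other arrays. Without MDP CD103 low replicate 1 the differences were 1.98 for Emb, -1.05 for Fcrla and -1.20 for Cd300c.

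**Figure D1:**
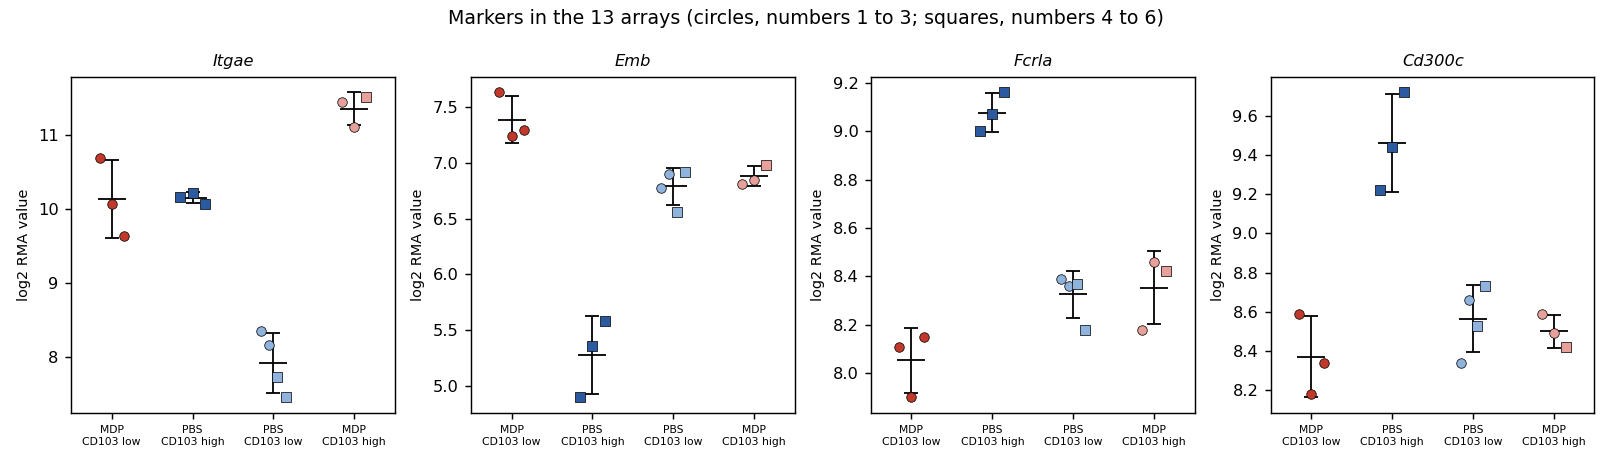
Log2 RMA values of Itgae, Emb, Fcrla and Cd300c in the 13 arrays by group. Points are arrays (circles for numbers 1 to 3, squares for 4 to 6) and bars the group mean ± SD. The MDP CD103 low and PBS CD103 high arrays overlap for Itgae and are apart for the other 3 genes.

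Across all genes, 64 passed the threshold of an adjusted p of 0.05 in limma, 30 higher and 34 lower in MDP CD103 low cells. That is 0.289% of the genes tested (0.135% higher and 0.153% lower), and it includes Emb, Fcrla and Cd300c, so that 61 others passed. The groups of arrays did not overlap for any of the 64, which was so for 16.4% of all genes (8.97% higher, 7.45% lower). An unadjusted p under 0.05 was reached by 2566 genes (11.6%). The smallest difference among the 64 was 0.38 in size, and 6 genes in each direction differed at least 2-fold. For 21818 genes (98.4%) the 95% interval of the difference lay within 1 in either direction. For 5 genes it lay wholly beyond 1: Emb, Ccr2, Bex6, Ccl3 and Chst9. Of these, Ccl3 missed the adjusted threshold.

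The distance between whole arrays gives the scale of these differences. Over the 11716 genes above the olfactory receptor level (5.12, the 95th percentile of 1105 olfactory receptor genes, taken as background), the SD of the difference of 2 arrays was 0.233 to 0.329 in the 9 pairs of an MDP CD103 low and a PBS CD103 high array. It was 0.199 to 0.286 among the MDP CD103 low arrays and 0.188 to 0.231 among the PBS CD103 high arrays. Between MDP CD103 high and PBS CD103 high it was 0.224 to 0.322. The pair's range overlapped with that among MDP CD103 low arrays through replicate 1 alone. Without that array the SD was 0.199 within MDP CD103 low and 0.233 to 0.278 between the groups, with no overlap.

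Because the numbers of the labels divide the pair, the other groups, which hold both ranges, were compared by number as well. PBS CD103 low has 2 arrays in each range, and MDP CD103 high has 2 arrays numbered 1 to 3 and 1 numbered 4. With the range of the number as a term in the fit, a comparison added after the data were seen, 62 genes of 22180 passed for the number itself. Of the 64 genes of the pair, 1 did, Plk2. The shared spread used to call the 64 holds any difference by number within the other groups. Genes that follow the numbers were thus less likely to be called, and the low count comes in part from the selection. The part of the numbers in the differences was not tested. All 64 kept their direction with the term, and the median size of their differences was 0.66 with and without it. The SE grew, and apart from the untested marker Emb (2.11 ± 0.23), Bex6 passed the threshold (1.38 ± 0.17, adjusted p = 0.029) and no other gene did. In 7 of the 64 the numbers divided the arrays of both other groups in the direction of the difference, against 8.87% of all genes.

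The cells carried the RNA of the sort in both groups. Cd8a, a chain of the CD8 coreceptor, read 10.52, 10.23 and 10.37 against 10.35, 10.51 and 10.37. Ly75, which encodes CD205, read 9.93, 9.23 and 9.24 against 9.19, 9.42 and 9.38. The differences were -0.04 ± 0.11 for Cd8a and 0.14 ± 0.16 for Ly75 (limma, adjusted p = 0.942 and 0.796). Of 28 measured cDC1 identity genes 0 passed the threshold in limma, and at an unadjusted p under 0.05 there were 0 higher and 5 lower. Their median difference was -0.04, with 8 of 28 above 0, beside 0.005 over all genes. With the number as a term it was -0.07, with 2 of 28 above 0. Their mean level was 10.80 to 10.90 in each of the 6 arrays. The arrays did not overlap and were higher for 2 members and lower for 5, beside 8.97% and 7.45% of all genes. Members whose arrays did not overlap include Bcl6, a repressor needed by this lineage, at 9.92, 9.98 and 9.97 against 10.44, 10.45 and 10.40 (adjusted p = 0.214). They also include Cadm1, an adhesion molecule, with a difference of -0.25 (adjusted p = 0.16). In the other groups Bcl6 followed the label numbers, at a mean of 9.90 for numbers 1 to 3 in both and at 10.39 and 10.24 for 4 to 6, and its difference was -0.04 with the number as a term.

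The named genes follow by role, an order of description that was not tested as groups, first those that were higher in MDP CD103 low cells. Cdk6, a cyclin D kinase of the G1 phase, read 7.97, 8.0 and 7.92 against 6.73, 6.50 and 7.11. The MDP CD103 low arrays were the highest of all 13 and the PBS CD103 high arrays the lowest, with a difference of 1.18 ± 0.14 (adjusted p = 0.00397). Cdca7, a target of Myc and E2F that is transcribed toward S phase, read 8.10, 8.32 and 8.41 against 7.63, 7.40 and 7.34. Here the MDP CD103 low arrays lay among those of the other groups and the PBS CD103 high arrays lay below all others (0.82 ± 0.12, adjusted p = 0.0163).

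Plk2, a polo-like kinase induced by serum and stress, read 7.95, 7.75 and 7.92 against 6.53, 6.77 and 6.94 (1.13 ± 0.20, adjusted p = 0.0453). In the other groups Plk2 followed the numbers, with means of 7.57 for numbers 1 to 3 and 6.98 for 4 to 6 in PBS CD103 low cells, and 7.49 against 6.88 in MDP CD103 high cells. With the number as a term its difference was 0.53 ± 0.14 (adjusted p = 0.472). Ahcy, which clears S-adenosylhomocysteine in the methylation cycle, was higher by 0.69 ± 0.10 (adjusted p = 0.0137) and Ybx3, a cold shock protein that binds RNA and DNA, by 0.67 ± 0.08 (adjusted p = 0.00482). Slc38a2, a transporter of neutral amino acids, was higher by 0.66 ± 0.10 (adjusted p = 0.0205). The mean of both Ahcy probe sets differed by 0.44 (adjusted p = 0.0731). For Ahcy, Ybx3 and Slc38a2 the PBS CD103 high arrays were the lowest of all 13.

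Ccr2, the receptor of the chemokine CCL2 and best known from monocytes, read 7.37, 6.04 and 6.90 against 5.38, 4.77 and 5.38. The MDP CD103 low arrays spread widely, and replicate 2 lay within the range of PBS CD103 low cells (5.87 to 6.26). The difference of 1.59 ± 0.27 (adjusted p = 0.0333) was 1.29 without MDP CD103 low replicate 1 (adjusted p = 0.0788). Lgals1, the secreted galectin-1, read 9.54, 9.50 and 9.94 against 8.61, 8.57 and 8.47 (1.11 ± 0.13, adjusted p = 0.00482). Anxa2, a calcium-dependent membrane-binding protein, read 8.05, 7.89 and 8.31 against 7.12, 7.15 and 7.32 (0.89 ± 0.12, adjusted p = 0.0114). For both, the PBS CD103 high arrays were the lowest of all 13.

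Emp1, a tetraspan membrane protein, read 6.51, 6.11 and 6.03 against 5.29, 5.46 and 5.06 (0.95 ± 0.17, adjusted p = 0.0453). Its difference was 0.61 with the number as a term and 0.55 with the mean of both its probe sets (adjusted p = 0.0512), and the MDP CD103 low arrays were the highest of all 13. Cd22, an inhibitory sialic acid-binding receptor of B cells, read 6.89, 6.42 and 6.81 against 5.92, 5.86 and 5.80 (0.84 ± 0.14, adjusted p = 0.0254). Vcl, vinculin, which links integrins to actin, read 8.75, 8.73 and 8.65 against 8.25, 8.06 and 8.25 (0.52 ± 0.07, adjusted p = 0.0114). The other groups lay near the MDP CD103 low arrays for Vcl, with means of 8.61 in PBS CD103 low and 8.56 in MDP CD103 high cells.

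Bcl2, which protects cells from apoptosis, read 7.55, 7.42 and 7.46 in MDP CD103 low cells and 6.68, 6.77 and 7.09 in PBS CD103 high cells. All PBS CD103 high arrays lay below all others, and the difference was 0.63 ± 0.10 (adjusted p = 0.0207). With the mean of both Bcl2 probe sets it was 0.36 (adjusted p = 0.0373). Vegfa, the vascular growth factor, read 6.62, 6.32 and 6.34 against 5.90, 5.97 and 5.99 (0.47 ± 0.08, adjusted p = 0.034). Among regulators of transcription, Lmo1, a LIM-domain protein, was higher by 0.80 ± 0.11 (adjusted p = 0.0114) and Bend4, a BEN-domain protein, by 0.63 ± 0.10 (adjusted p = 0.0267). With the mean of both Bend4 probe sets the latter was 0.38 (adjusted p = 0.13). Bex6, a member of the Bex family of small proteins, differed by 1.36 ± 0.12 (adjusted p = 0.000327). It read 4.28, 4.12 and 4.03 against 2.97, 2.81 and 2.57, levels within the range of olfactory receptor genes.

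The genes that were lower in MDP CD103 low cells are given next. Beside Cd300c, 2 more members of its family passed, and they are named after their values were seen. Cd300c2 read 8.0, 8.11 and 8.17 against 8.64, 8.57 and 8.74, with the PBS CD103 high arrays above all others (-0.56 ± 0.09, adjusted p = 0.0316). Cd300e, an activating receptor of monocytes, read 8.16, 8.06 and 8.22 against 8.48, 8.89 and 9.04 (-0.65 ± 0.12, adjusted p = 0.0477). For Cd300e it was the MDP CD103 low arrays that lay beyond all 10 others.

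Gpr82, an orphan G protein-coupled receptor, read 5.55, 5.22 and 5.79 against 6.54, 6.49 and 6.79 (-1.09 ± 0.15, adjusted p = 0.0144). Cysltr2, a receptor of cysteinyl leukotrienes, read 5.21, 5.55 and 5.74 against 6.53, 6.31 and 6.14 (-0.83 ± 0.15, adjusted p = 0.0453). Adgrl3, an adhesion receptor of the latrophilin type, differed by -0.73 ± 0.13 (adjusted p = 0.0453), or by -0.38 with the mean of both its probe sets (adjusted p = 0.196). For these 3 receptors the PBS CD103 high arrays were the highest of all 13. Hcar1, a receptor of lactate, read 4.76, 4.69 and 4.93 against 5.47, 5.32 and 5.42 (-0.61 ± 0.11, adjusted p = 0.0467). MDP CD103 high cells stood near PBS CD103 high cells for Hcar1, with a mean of 5.26, and PBS CD103 low cells near MDP CD103 low cells, with a mean of 4.70. The MDP CD103 low readings of Hcar1 lay below the olfactory receptor level of 5.12 and the PBS CD103 high readings little above it.

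Plpp3, which dephosphorylates signalling lipids such as lysophosphatidic acid, read 5.35, 6.01 and 5.90 against 6.63, 7.15 and 7.09 (-1.20 ± 0.17, adjusted p = 0.0144). Plb1, a phospholipase, read 5.02, 5.01 and 4.98 against 5.43, 6.01 and 5.93 (-0.79 ± 0.12, adjusted p = 0.0218). Entpd1, which encodes CD39 and degrades extracellular ATP, read 8.37, 9.06 and 8.78 against 9.53, 9.41 and 9.47 (-0.73 ± 0.13, adjusted p = 0.0467). The PBS CD103 high arrays were the highest of all 13 for each of them. For Entpd1 the difference was -0.55 when MDP CD103 low replicate 1 was left out (adjusted p = 0.0649). Enpp5, of the ectonucleotide pyrophosphatase family, differed by -0.82 ± 0.15 (adjusted p = 0.0465).

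The other named genes that were lower have varied roles. Pacsin1, a dynamin-binding protein of endocytosis that is abundant in plasmacytoid dendritic cells, read 5.21, 4.98 and 5.08 against 6.02, 6.07 and 5.70 (-0.84 ± 0.14, adjusted p = 0.0254). Ctla2b, related to the propeptide of cysteine proteases, read 9.07, 8.66 and 8.78 against 9.74, 9.84 and 9.88 (-0.98 ± 0.16, adjusted p = 0.0297). Ifitm6, of the interferon-induced transmembrane family, differed by -0.82 ± 0.12 (adjusted p = 0.0163) and Fndc5, the precursor of irisin, by -0.76 ± 0.12 (adjusted p = 0.0191). Ddx43, a DEAD-box RNA helicase, read 5.34, 5.14 and 4.78 against 5.99, 6.03 and 5.80 (-0.85 ± 0.13, adjusted p = 0.0232), beside means of 5.18 in PBS CD103 low and 5.93 in MDP CD103 high cells. Chst9, a sulfotransferase acting on N-acetylgalactosamine, differed by -1.30 ± 0.14 (adjusted p = 0.00214) at levels of 2.35 to 4.03, within the olfactory receptor range. Of the 64 genes, 6 had a mean at or below that range's 95th percentile.

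**Figure D2:**
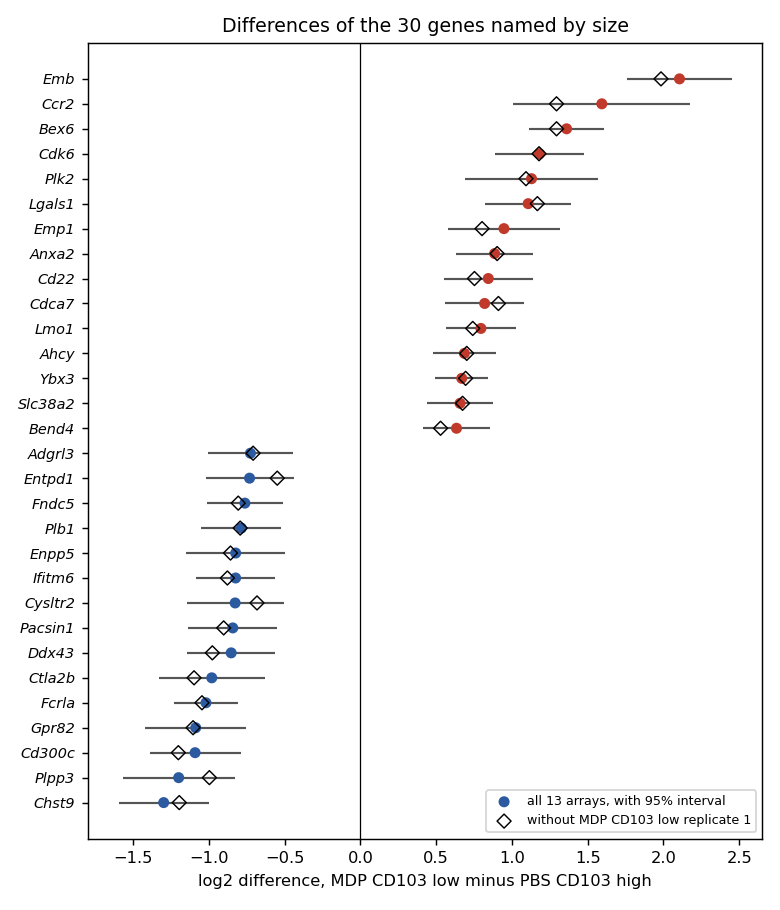
Log2 difference, MDP CD103 low minus PBS CD103 high, of the 15 largest rises and 15 largest falls among genes past the threshold. Filled points are the estimates from all 13 arrays with 95% intervals (red higher, blue lower), and open diamonds leave out MDP CD103 low replicate 1. The diamonds run from 1.98 for Emb to -1.20 for Cd300c, and Entpd1 moves from -0.73 to -0.55.

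Of the 64 genes, 30 fall outside the rule for named genes, and those given here besides Cd300c2 and Cd300e are also named after their values were seen. Gm11837, a gene model without a known role, had the largest difference among them (-1.21 ± 0.18, adjusted p = 0.0163). Hfe, a regulator of iron uptake, was lower at a mean of 7.60 against 8.32 (-0.72 ± 0.12, adjusted p = 0.0267). Tcf7l2, a Wnt transcription factor, differed by -0.53 ± 0.09 (adjusted p = 0.0297), Dkk3, a secreted Dickkopf family member, by -0.64 ± 0.09 (adjusted p = 0.0144) and Maml2, a Notch coactivator, by -0.47 ± 0.07 (adjusted p = 0.017). Ptgis, which makes prostacyclin, differed by -0.65 ± 0.12 (adjusted p = 0.0453). Among the higher ones were Ripk3, the kinase of necroptosis (0.44 ± 0.08, adjusted p = 0.0463), and Paics, an enzyme of purine synthesis (0.48 ± 0.08, adjusted p = 0.0313). Myo5a, a myosin that carries vesicles, was higher by 0.45 ± 0.08 (adjusted p = 0.0467).

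**Figure D3:**
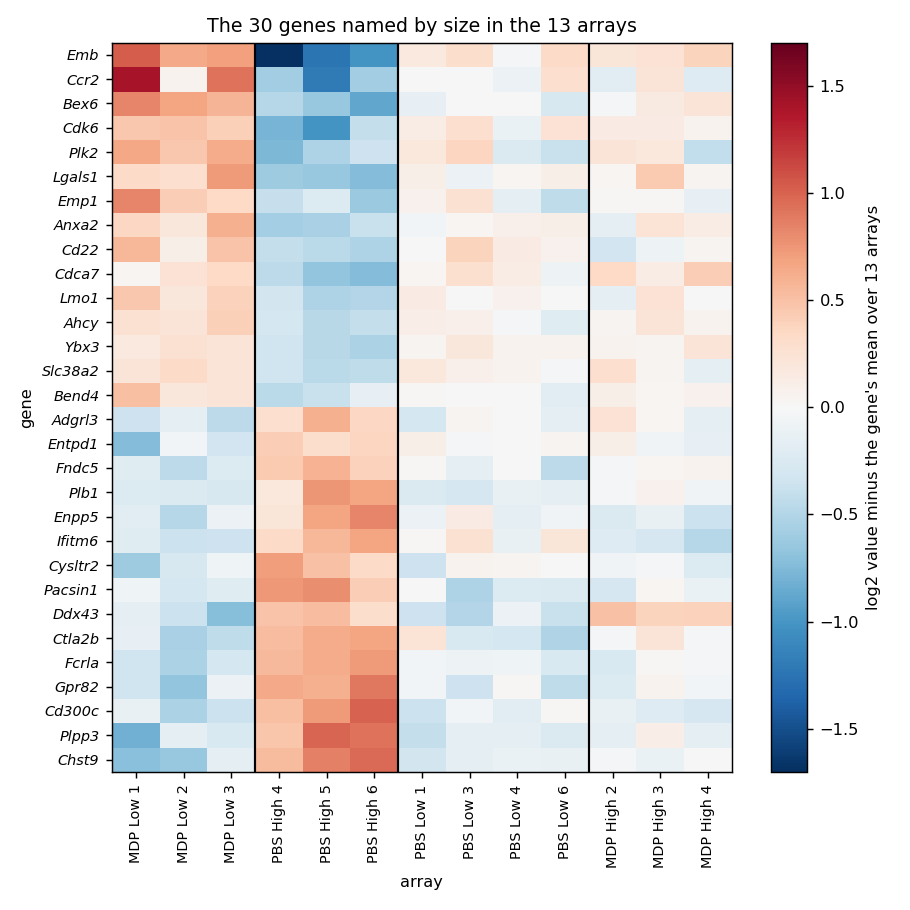
Log2 values of the 30 genes named by size in the 13 arrays, each shown relative to the gene's own mean over the arrays (red above, blue below). Columns are arrays by group, parted by black lines. The PBS CD103 high columns stand apart from the 10 others for most genes, with Emb from 4.90 to 5.58 there and at least 6.56 elsewhere.

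The 7 arrays that belong to neither group show which of the pair stood apart. As the genes were selected for their difference between the pair, this is a description. The PBS CD103 high arrays lay beyond all 10 others in 49 of the 64 genes, above them in 26 and below them in 23, and did so in 2.71% of all genes. The MDP CD103 low arrays lay beyond all others in 18 of the 64, and did so in 1.03% of all genes. Only genes whose arrays of the pair do not overlap can meet either condition. That held for all of the 64 and for 16.4% of all genes, so these shares are not like for like. Both held for 10 genes, among them Emb, Fcrla, Cdk6 and Bex6, and neither held for 7. The mean of PBS CD103 low cells lay between the pair in 62 of the 64, and that of MDP CD103 high cells in 60.

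The other groups that differ in both injection and gate, MDP CD103 high and PBS CD103 low, share no array with the pair, only the estimate of the spread. Between them 90 genes passed (0.406%). Of the 64 genes here, 29 had the same sign there and 2 passed, Ddx43 (0.76) and Hcar1 (0.56), both with the opposite sign. The median size of the difference of the 64 genes was 0.11 there and 0.66 in the pair. As the 64 were selected for their difference in the pair, a smaller size elsewhere follows from the selection. It does not show that the differences are particular to the pair.

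Genes known to act on CD103 did not pass the threshold. The count was 0 of 30 measured genes of the integrin, TGF-beta and GM-CSF pathways (2 higher and 5 lower at an unadjusted p under 0.05), and the median was -0.02. Itgae itself, whose nearly equal RNA chose the pair, is counted among the 30. Tgfbr1, the signalling TGF-beta receptor, read 6.31, 6.79 and 6.27 against 6.94, 7.21 and 7.15 (-0.64 ± 0.14, adjusted p = 0.083). Lrrc32, which holds latent TGF-beta at the cell surface, read 6.15, 6.03 and 5.98 against 6.47, 6.99 and 6.49 (-0.60 ± 0.15, adjusted p = 0.142). Runx3, a transcription factor downstream of TGF-beta, read 7.11, 6.76 and 6.94 against 6.64, 6.68 and 6.50 (0.33 ± 0.10, adjusted p = 0.204). The arrays did not overlap for these 3 genes, which was so for 7 of the 30 (2 higher, 5 lower) and for 16.4% of all genes. Csf2rb, the shared chain of the GM-CSF receptor, overlapped (0.18 ± 0.13, adjusted p = 0.653).

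The NOD2 and NF-kB list had 0 of 34 measured members past the threshold (2 higher and 6 lower at an unadjusted p under 0.05) and a median of -0.03, which was -0.16 without MDP CD103 low replicate 1. Nod2 read 7.03, 6.69 and 6.67 against 6.54, 6.69 and 6.82, and the groups overlapped (0.11 ± 0.11, adjusted p = 0.749). Rel, an NF-kB subunit, read 11.73, 11.66 and 11.54 against 11.86, 11.84 and 11.86 (-0.21 ± 0.07, adjusted p = 0.271). The arrays did not overlap for Xiap, an inhibitor of apoptosis that takes part in NOD2 signalling (0.20 ± 0.08, adjusted p = 0.329), nor for Tab3, an adaptor of the kinase TAK1 (-0.34 ± 0.11, adjusted p = 0.26).

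Chemokine genes had some of the largest differences of the pair without passing the threshold. Ccl3, an inflammatory chemokine, read 9.37, 8.67 and 8.59 against 6.65, 6.76 and 6.06, with a difference of 2.39 ± 0.64 (adjusted p = 0.161). Ccl2, the ligand of CCR2, read 6.99, 7.37 and 7.21 against 5.57, 5.83 and 5.48 (1.56 ± 0.40, adjusted p = 0.141). The groups did not overlap for either gene. In the other groups these genes followed the numbers of the labels. Ccl3 read 8.84 and 8.76 in PBS CD103 low replicates 1 and 3, and 7.07 and 6.24 in replicates 4 and 6. In MDP CD103 high cells it read 8.81 and 8.77 in replicates 2 and 3, and 6.96 in replicate 4.

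With the range of the number as a term, numbers 1 to 3 stood above 4 to 6 by 2.02 ± 0.24 for Ccl3 and by 1.26 ± 0.15 for Ccl2 (adjusted p = 0.00629 for each). The difference of the pair was then 0.37 ± 0.34 for Ccl3 (adjusted p = 0.846) and 0.31 ± 0.22 for Ccl2 (adjusted p = 0.794). Ptgs2, the inducible cyclooxygenase, did not follow the numbers. It read 6.11, 4.80 and 5.00 against 4.25, 3.84 and 4.04, with the MDP CD103 low arrays above all others (1.26 ± 0.26, adjusted p = 0.0691). With the term its difference was 1.18 ± 0.37 (adjusted p = 0.512). Without MDP CD103 low replicate 1, and without the term, the difference was 0.86 (adjusted p = 0.0473). Apart from that replicate, all arrays of the pair read below the olfactory receptor level of 5.12 for Ptgs2. Il1b, the gene of interleukin 1 beta, read 10.85, 10.96 and 10.32 against 11.11, 11.38 and 11.15 (-0.50 ± 0.16, adjusted p = 0.238). Of 33 measured cytokine and chemokine genes 0 passed (4 higher and 2 lower at an unadjusted p under 0.05), and the median was 0.00.

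**Figure D4:**
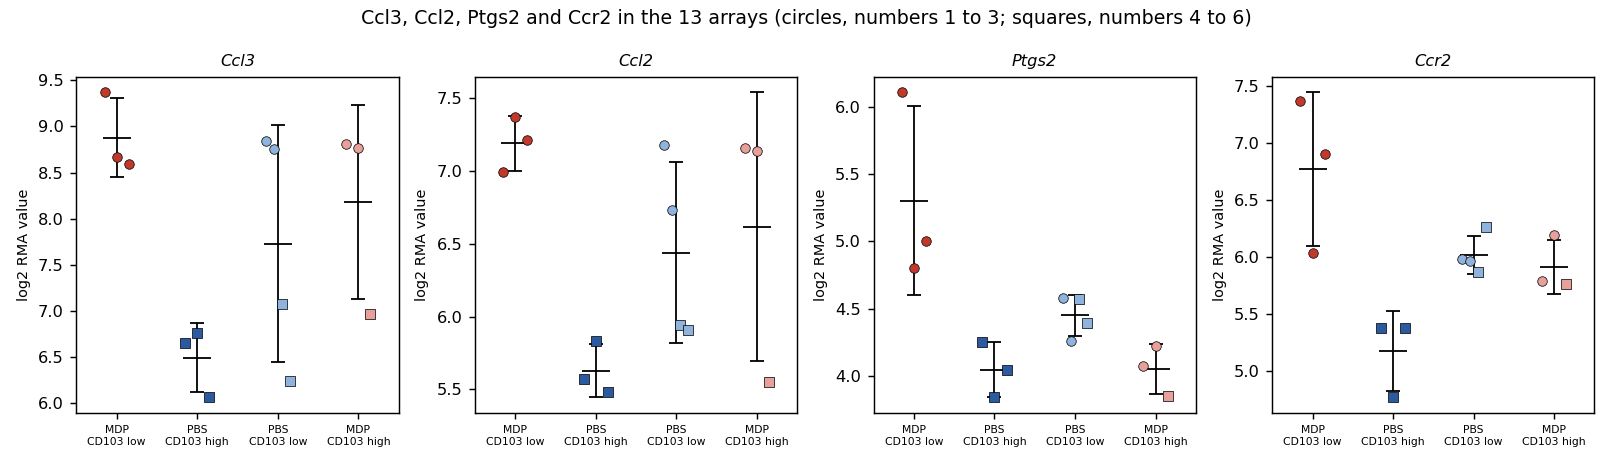
Log2 RMA values of Ccl3, Ccl2, Ptgs2 and Ccr2 in the 13 arrays by group, with circles for arrays numbered 1 to 3, squares for 4 to 6, and bars for the mean ± SD. In PBS CD103 low and MDP CD103 high cells, Ccl3 lies at 8.76 to 8.84 in the circles and at 6.24 to 7.07 in the squares.

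Immediate-early and dissociation stress genes, which are induced within minutes when tissue is handled, behaved likewise. Of 31 measured members 0 passed the threshold for the pair (7 higher and 1 lower at an unadjusted p under 0.05). The arrays of 14 did not overlap and were higher in MDP CD103 low cells, and those of 1 were lower. Over all genes the shares were 8.97% higher and 7.45% lower. The median of the list was 0.21. Hspa1a, a heat shock protein, read 13.35, 13.16 and 13 against 12.33, 12.58 and 12.23 (0.79 ± 0.29, adjusted p = 0.298). Myc, a transcription factor of growth, read 8.22, 8.39 and 8.44 against 7.61, 7.85 and 7.93 (0.55 ± 0.17, adjusted p = 0.241). The mean of the list was 10.08 in PBS CD103 low arrays numbered 1 to 3 and 9.60 in those numbered 4 to 6, and 9.99 against 9.55 in MDP CD103 high arrays. With the number as a term, the median of the pair was -0.21 with 3 of 31 above 0. Hspa1a then differed by -0.11 ± 0.16 (adjusted p = 0.911) and Myc by 0.05 ± 0.13 (adjusted p = 0.958).

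Genes of mature, CCR7-type dendritic cells, which leave tissues for the T cell zones, had 0 of 36 measured members past the threshold (1 higher and 5 lower at an unadjusted p under 0.05) and a median of -0.01. Their mean was 8.70, 7.74 and 7.75 in the MDP CD103 low arrays and 7.82, 8.18 and 7.98 in the PBS CD103 high arrays. Replicate 1 lay above every other array of the pair, and replicates 2 and 3 lay below all PBS CD103 high arrays. The median was -0.19 with 6 of 36 above 0 when replicate 1 was left out, and 0.15 when replicate 2 was. Fscn1, an actin-bundling protein of mature dendritic cells, read 8.91, 6.94 and 7.20 against 6.55, 7.29 and 6.86 (adjusted p = 0.491). Il15ra, which presents interleukin 15, read 7.57, 6.77 and 6.59 against 6.47, 6.59 and 6.34 (adjusted p = 0.359).

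In the list of DNA replication and S phase, 1 of 45 measured genes passed, Cdca7, and it was higher, beside 0.135% of all genes. The median was 0.21, with 38 of 45 above 0. The list's mean overlapped, at 7.67, 7.95 and 7.93 in the MDP CD103 low arrays and 7.86, 7.59 and 7.53 in the PBS CD103 high arrays. In 13 the arrays did not overlap and were higher and in 2 they were lower, beside 8.97% and 7.45% of all genes. Dnmt1, which copies DNA methylation at the fork, read 9.23, 9.49 and 9.48 against 9.18, 8.80 and 8.82 (0.47 ± 0.12, adjusted p = 0.129). Fen1, which trims Okazaki fragments, read 6.88, 7.04 and 6.58 against 6.56, 6.44 and 6.34 (0.39 ± 0.11, adjusted p = 0.183). Tk1, thymidine kinase, lay the other way at 7.19, 7.34 and 7.29 against 7.49, 7.51 and 7.53 (-0.23 ± 0.08, adjusted p = 0.253). The list's median rested in part on single arrays. It was 0.13 when PBS CD103 high replicate 6 was left out, 0.31 when MDP CD103 low replicate 1 was, and 0.08 with the number as a term. With each label number as a replicate block it was 0.01.

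Mitosis genes had 0 of 58 past the threshold (1 higher and 1 lower at an unadjusted p under 0.05) and a median of -0.01. The list's mean was 7.20, 7.73 and 7.65 in the MDP CD103 low arrays and 7.77, 7.50 and 7.37 in the PBS CD103 high arrays, so replicate 1 of the former was the lowest. Without it the median was 0.15, with 50 of 58 above 0. With the number as a term it was -0.22. MDP CD103 high cells lay above both groups in either list, at 8.46 in each array for replication and 8.06 to 8.35 for mitosis. Of 26 genes of CDK inhibitors, p53 response and survival, Bcl2 passed as higher, beside 0.135% of all genes. Casp8, the initiator caspase of death receptors, read 8.72, 8.65 and 8.83 against 8.46, 8.34 and 8.28 (adjusted p = 0.111).

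Of 32 measured genes of lactate and glucose metabolism, Vegfa passed as higher and Hcar1 as lower, beside 0.135% and 0.153% of all genes. The list also holds Emb, which carries no test here and whose difference is its largest. In 14, Emb among them, the arrays did not overlap and were higher and in 1 they were lower, beside 8.97% and 7.45% of all genes. The median was 0.14, with 26 of 32 above 0. The mean of the list, with the marker Emb counted, was 7.62, 7.52 and 7.53 in the MDP CD103 low arrays. It was 7.36, 7.34 and 7.35 in the PBS CD103 high arrays, so the groups did not overlap. As Emb was named from these arrays, this is a description. Pdha1, a subunit of pyruvate dehydrogenase, read 7.97, 7.96 and 7.75 against 7.59, 7.43 and 7.36 (0.43 ± 0.08, adjusted p = 0.0573). The median was 0.11 without MDP CD103 low replicate 1 and 0.14 with the number as a term.

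**Figure D5:**
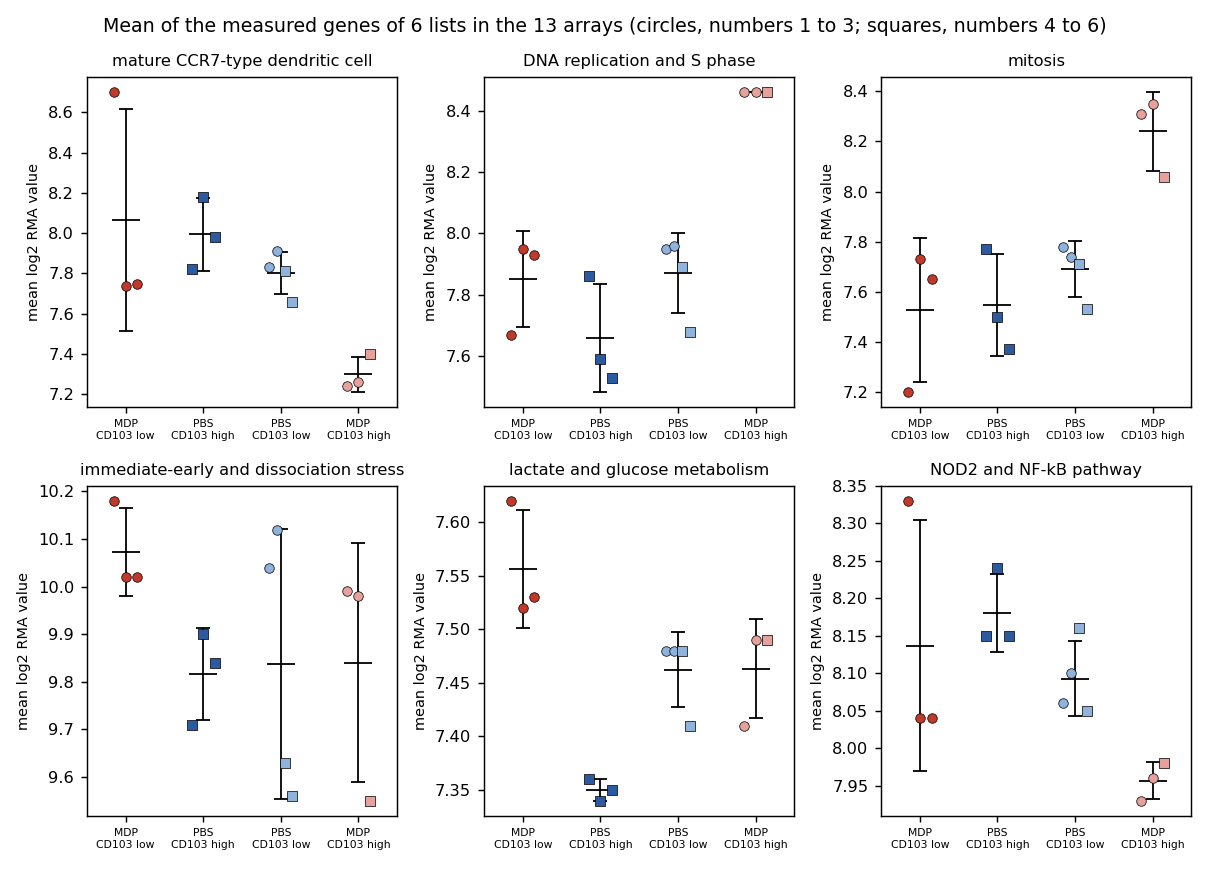
Mean log2 RMA value over the measured members of 6 gene lists in each of the 13 arrays (circles for numbers 1 to 3, squares for 4 to 6, bars for the group mean ± SD). MDP CD103 low replicate 1 stands at 8.70 for mature dendritic cell genes and 7.20 for mitosis, and the immediate-early means follow the numbers in PBS CD103 low and MDP CD103 high cells.

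Antigen presentation genes had 0 of 34 past the threshold (5 higher and 5 lower at an unadjusted p under 0.05) and a median of -0.02. The arrays of 18 did not overlap, 7 higher and 11 lower, beside 8.97% and 7.45% of all genes. Ctsl, a lysosomal protease, read 6.75, 6.64 and 6.64 against 5.73, 6.20 and 5.88 (0.74 ± 0.15, adjusted p = 0.0711), and 0.37 was left of the difference with the number as a term. H2-Oa, which restrains the loading of MHC class II, read 11.03, 10.75 and 10.72 against 11.15, 11.33 and 11.49 (-0.49 ± 0.11, adjusted p = 0.085), and its difference was the same with the term. Tap1, the peptide transporter of MHC class I, differed by -0.21 ± 0.07 (adjusted p = 0.288).

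The next counts stand beside 0.135% of all genes past the threshold as higher and 0.153% as lower. In lists of this length a single passing member exceeds such shares. Among 42 migration and adhesion genes 2 passed, Ccr2 and Vcl, both higher, with a median of 0.06. Cd44, the hyaluronan receptor, read 9.36, 9.71 and 9.22 against 9.87, 9.92 and 10.12 (-0.54 ± 0.22, adjusted p = 0.367). Of 26 cholesterol and lipid genes, Plpp3 and Plb1 passed as lower, neither of them an enzyme of cholesterol synthesis. Mvd, which is one, read 8.13, 7.94 and 7.90 against 7.50, 7.71 and 7.50 (0.42 ± 0.09, adjusted p = 0.0958). Of 26 tolerance and checkpoint genes, Entpd1 passed as lower. Lilrb4a, an inhibitory receptor, read 9.67, 9.80 and 9.39 against 10.38, 10.31 and 10.76 (-0.86 ± 0.23, adjusted p = 0.169). Of 32 interferon-stimulated genes 0 passed (0 higher and 2 lower at an unadjusted p under 0.05), with a median of -0.12. It was -0.01 when PBS CD103 high replicate 4 or 5 was left out and -0.29 when replicate 6 was. Its direction turned with sex chromosome transcripts as a covariate (0.05) and in the arrays of low Xist alone (0.31).

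A list of 16 genes called between the CD103 gates of PBS mice had 14 past the threshold here, 6 higher and 8 lower. It was chosen on the same PBS CD103 high arrays, counts the markers Emb, Fcrla and Cd300c, and is not independent evidence. The members that did not pass were Itgae and Ttc39b (-0.31 ± 0.08, adjusted p = 0.155).

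Markers of other cells that such a sort could hold are set beside the 0.289% of all genes past the threshold. Lists this short exceed that share with a single passing marker. The plasmacytoid, B cell and monocyte lists did so with a single tested marker each, which does not show a change in such cells. Of 15 plasmacytoid dendritic cell markers, Pacsin1 passed as lower, and Cd300c, also of that list, is described above without a test. Tcf4, the factor that defines that lineage, stood at 7.25 to 7.37 against 7.11 to 7.17 (adjusted p = 0.44) and Ly6d at 5.58 to 5.64 against 5.21 to 5.42 (adjusted p = 0.224). The mean of that list was 6.05 to 6.15 against 6.11 to 6.25. Of 12 B cell markers, which include the untested Fcrla, Cd22 passed as higher, with Cd79a at 3.67 to 3.92 in all 6 arrays, below the olfactory receptor level, and list means of 5.25 to 5.40 against 5.29 to 5.34. Monocyte and macrophage markers had 1 of 17 higher, Ccr2, with Csf1r at 5.63 to 6.02 against 5.44 to 5.92 and list means of 5.82 to 6.09 against 5.85 to 5.95.

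Type 2 dendritic cell markers had 0 of 15 past the threshold (2 higher and 1 lower at an unadjusted p under 0.05) and a median of 0.18, or 0.09 without MDP CD103 low replicate 1. Their mean was 6.19, 5.74 and 5.78 against 5.68, 5.79 and 5.78. Natural killer cell markers had 0 of 11 (2 higher and 0 lower at an unadjusted p under 0.05), with Klrk1 at 9.09, 9.11 and 9.13 against 8.80, 8.71 and 8.62 (0.40 ± 0.08, adjusted p = 0.0622) and Ncr1 at 3.50 to 3.94 over the 6 arrays. None passed among 14 neutrophil, 11 T cell, 4 erythroid and 9 melanoma markers, where 1 neutrophil, 1 T cell and 1 erythroid marker were higher and 1 T cell marker was lower at an unadjusted p under 0.05. The part of any of these cells in the differences was not tested.

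MDP CD103 low replicate 1 had the lowest weight of all 13 arrays when limma estimated array weights. Without it 29 of the 64 genes had a larger difference, and 28 passed the threshold among 40 in all. Named genes that passed without it include Bex6 (1.29, adjusted p = 0.00329), Cdk6 (1.18, adjusted p = 0.0175), Lgals1 (1.17, adjusted p = 0.0132), Chst9 (-1.20, adjusted p = 0.0126) and Plpp3 (-1.0, adjusted p = 0.0325). Those that then fell short include Plk2 (1.09, adjusted p = 0.107), Emp1 (0.80, adjusted p = 0.107), Adgrl3 (-0.71, adjusted p = 0.107) and Cysltr2 (-0.68, adjusted p = 0.102). So did Enpp5 (-0.86, adjusted p = 0.0892), Cd22 (0.75, adjusted p = 0.0791), Bend4 (0.53, adjusted p = 0.0659) and Plb1 (-0.79, adjusted p = 0.0613), beside Ccr2 and Entpd1. With other single arrays left out the count ranged from 8 without PBS CD103 high replicate 5 to 53 without PBS CD103 low replicate 6, with 14 on leaving out PBS CD103 high replicate 6, 16 without MDP CD103 low replicate 3 and 14 when only the 6 arrays of the pair were fitted, of which 4 were among the 64. With the label number as a replicate block 0 genes passed in limma, and 1547 had an unadjusted p under 0.05.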

How the data were processed

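The authors deposited 1 table of log2 values for 41345 probe sets and 13 arrays, made by RMA in Affymetrix Expression Console per the submitters' processing notes (versions not given in the sources used here). It was used as deposited. The platform annotation gave 1 symbol to 23521 probe sets, several to 1814 and none to 16010. Each gene (22180) is represented by its probe set of highest mean. No arrays held identical values. limma 3.58.1 (R 4.3.3) was fitted with 4 group means over all 13 arrays, and the empirical Bayes test of MDP CD103 low minus PBS CD103 high was adjusted by Benjamini-Hochberg over all genes (two-sided, threshold 0.05). The test was checked on simulated data. Errors are SE of the difference unless called SD. Named genes are the 15 largest differences past the threshold in each direction (gene models and small RNAs set aside), and up to 3 members of each list in each direction by smallest p, beside the 4 markers, Cd8a, Ly75 and Nod2. The members and lists were chosen with earlier results of these data known. Number of arrays limits the precision, with 9 residual degrees of freedom. The pair shares no label number, so the numbers do not pair its arrays. Python 3.11.15 and pandas 2.3.3 made the summaries. Alternatives appear in the closing section.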

Additional observations from a re-analysis of the deposited data

Results flagged for a closer look

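Among 34 called genes, 1 of the 4 PBS CD103 low arrays lay far from the other 3 for 5 genes, judged by Dixon's ratio of gap to range at its 95% critical value. Chance gives such a gap in about 1 of 20 groups. Replicate 3 was high for Ybx3, at 10.27. Replicate 6 was low for Bend4, at 5.62, and for Fcrla, at 8.18. Replicate 1 was low for Chst9, at 2.76, and for Cysltr2, at 5.46. These arrays belong to neither group of the pair and enter its test only through the shared spread. Among 17824 probe sets that carry no symbol or several, which were left out of the gene table, 1 passed the threshold between MDP CD103 low and PBS CD103 high cells and was higher in the former.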

How the results depend on the processing

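The arrays of the pair do not overlap for any of the 64 genes past the threshold, which fixes the direction of their differences under most alternatives, so that direction is no sign of stability. The count past the threshold was 14 with only the arrays of the pair, 185 with a variance trend and a robust fit, 120 with array weights, 37 with sex chromosome transcripts as a covariate, 179 among genes above the olfactory receptor level, 42 with the mean of probe sets and 164 at an adjusted p of 0.1. It ranged from 8 to 53 when 1 array was left out. Beside these, 4 alternatives were chosen after seeing the data. The arrays of low Xist alone gave 0 genes in limma (1415 at an unadjusted p under 0.05), those of high Xist alone gave 0 (1718), the range of the label number as a term gave 2 with Emb counted (1622), and injection with number as a random block gave 61. The cause of these changes was not tested. With the label number as a replicate block, limma gave 0 genes (1547 at an unadjusted p under 0.05). The pair shares no number, so no array of it is paired with another. Over the series, deviations of same-number arrays correlated from -0.236 to 0.45, and those of the 4 pairs of the same injection from 0.196 to 0.372, each pair sharing its Xist class. Whether a number marks shared animals or a batch was not tested. Genes whose interval lay within 1 in either direction numbered 11472 where only the 11716 genes above that level were fitted. Of the medians of the gene lists under the alternatives, 633 stayed within the spread between arrays and 42 moved. Of the values of single named genes, 3600 kept their side of the threshold or moved less than the spread, 327 fell short of the threshold, 29 passed it in addition, 164 untested values moved. With 3 arrays in each group, the median SE of 0.11 limits what can be seen, and 6 of the 64 genes lie at levels where signal over background is small.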
